A study of Mus musculus with 4 samples.

Results

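The 10 genes described here encode proteins of lipid droplets and of lipid storage: Plin2, Plin4, Plin5, Cidea, Cideb, Cidec, G0s2, Cd36, Hsd17b13 and Mogat1. They were picked by symbol, and all 10 were present among the 32285 genes of the count matrices. Their levels were followed in single nuclei of mouse liver, across the zones of the hepatocyte plate, across the other cell classes and across 4 libraries. The aged group consisted of 2 liver libraries of 30-month-old mice, and the young group of 2 liver libraries of 2-month-old mice. Mice of both groups were male, wild type and of the inbred strain C57BL6/J, and no treatment is named for either. Whether the 2 replicates of a group are separate animals is not stated in the labels, so the p-values measure the spread between these samples only, which may be technical.

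Hepatocytes store fat as triglyceride in lipid droplets, which are bounded by a single layer of phospholipid and carry a set of coat proteins. Perilipins (Plin2, Plin4, Plin5) cover the droplet and control the access of lipases. CIDE proteins (Cidea, Cideb, Cidec) act where droplets meet each other or the secretory pathway, and Cidec is known for making droplets larger by passing lipid between them. G0s2 inhibits the lipase Pnpla2 (ATGL). Cd36 is a scavenger receptor that takes up long-chain fatty acids, Hsd17b13 is a droplet-bound dehydrogenase of hepatocytes, and Mogat1 adds a fatty acid to monoacylglycerol. Hepatocytes along the path of the blood differ in function: those near the portal tract (periportal) favour fatty acid oxidation and gluconeogenesis, and those near the central vein (pericentral) favour lipogenesis and xenobiotic metabolism.

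Start sites and gene positions show where the 4 zonated members lie, and the promoters of 3 of them are printed because the data gave these genes a direction between zones. The promoter of Cd36 is not printed, because its RefSeq start lies inside the GENCODE gene and the first 30 bases after it were not found whole in a GENCODE transcript of Cd36. In mm10 with GENCODE vM21, Hsd17b13 lies at chr5:103955440-103977410, Cd36 at chr5:17781690-17888801, Plin4 at chr17:56100591-56109803 and G0s2 at chr1:193272161-193273217, all on the minus strand. The start of Plin4 lies close to the end of Plin5 (chr17:56111601-56117596, also on the minus strand), with 1797 bases between the genes. Plin4, Cideb, G0s2, Cidea and Mogat1 each overlap a gene on the opposite strand (Hdgfl2, Nop9, Lamb3, B430212C06Rik and BC035947). How the counting used strand is not given in the sources used here, so their counts are uncertain where the genes overlap. RefSeq promoters (build GRCm38.p6) were found for 9 of the 10 members, Cidea being without one. The 250 bases before the start follow 5′ to 3′ on the gene's strand, with capitals marking the only match found, the nuclear receptor half-site AGGTCA read on the other strand.
Hsd17b13, chr5:103977389-103977638, minus strand, lower in pericentral nuclei: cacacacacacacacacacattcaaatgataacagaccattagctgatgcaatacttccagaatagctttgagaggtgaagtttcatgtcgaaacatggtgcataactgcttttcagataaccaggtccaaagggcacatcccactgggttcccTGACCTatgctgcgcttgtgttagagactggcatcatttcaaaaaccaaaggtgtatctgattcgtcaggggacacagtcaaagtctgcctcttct
Plin4, chr17:56109783-56110032, minus strand, higher in pericentral nuclei: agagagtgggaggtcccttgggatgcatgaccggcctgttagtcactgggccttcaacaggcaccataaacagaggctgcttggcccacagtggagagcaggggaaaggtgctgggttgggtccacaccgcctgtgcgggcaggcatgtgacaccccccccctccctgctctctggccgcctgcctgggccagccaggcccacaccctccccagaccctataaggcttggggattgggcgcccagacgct
G0s2, chr1:193273189-193273438, minus strand, higher in pericentral nuclei: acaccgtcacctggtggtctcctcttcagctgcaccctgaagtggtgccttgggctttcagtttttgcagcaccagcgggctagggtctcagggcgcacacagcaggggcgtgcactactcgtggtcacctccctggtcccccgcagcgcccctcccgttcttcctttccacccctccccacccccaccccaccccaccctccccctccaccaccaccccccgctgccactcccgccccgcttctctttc
The match in Hsd17b13 began 96 bases before the start. AGGTCA on either strand was also found before the start of Plin2, before 1 of the 2 listed starts of Plin5 and before the RefSeq start of Cd36, which is uncertain as given above, and 14.0% of all 32851 promoters of that length held it. Neither CTTTGAT, the core bound by TCF/LEF factors, nor the E-box CACGTG was found in any member's promoter on either strand, against 3.21% and 6.02% of all promoters. A match is a description of letters, and none of these windows was tested for binding.

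The 4 matrices held 43013 barcodes, and 33262 nuclei were kept. Barcodes over 5% mitochondrial UMIs, which were left out, numbered 3424 of 11362 and 843 of 14267 in the aged libraries. In the young libraries they numbered 689 of 2666 and 868 of 14718. Replicate 1 of both groups thus lost a larger part than replicate 2 of both. Its bearing on the members was not tested beyond the alternative with at most 1% mitochondrial UMIs. The summed UMI counts were 38457709 and 54777101 in the aged libraries and 11799751 and 17809372 in the young libraries, and the young replicate 2 nuclei were the shallowest, at a median of 920 UMIs. A UMI marks 1 captured RNA molecule. Hepatocyte-like nuclei numbered 5525 and 8311 in the aged libraries and 1371 and 8965 in the young libraries. They lay in different clusters in each library. Clusters 16, 19 and 20 held nearly all of aged replicate 1, clusters 9, 10, 15 and 21 those of aged replicate 2, cluster 0 those of young replicate 1 and clusters 4 to 7 those of young replicate 2, so library and cluster cannot be told apart. The 8 hepatocyte markers summed to 17350 and 15912 CPM in the aged and 20012 and 18568 CPM in the young hepatocyte-like sums. Pairs of libraries shared 2 to 43 of the kept barcodes. Among 6 adipocyte markers, Lep had no UMI in any hepatocyte-like sum and Adipoq had 0 and 1 UMI in the aged and none in the young libraries. Plin1 had 1 and 5 UMIs in the aged and 1 and 5 in the young libraries, and most of the summed level of the 6 (11.2 and 28.9 CPM aged, 94.3 and 40.4 CPM young) came from Adrb3.

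Of the droplet genes, 4 had a position along the hepatocyte plate: Cd36, Plin4 and G0s2 were higher in pericentral nuclei, and Hsd17b13 was lower there. Plin2, Plin5, Cideb and Cidec did not pass the test between zones. For this comparison the hepatocyte-like nuclei of each library were ordered by a zone score, the mean level of pericentral minus periportal landmark genes, none of them a member. The 33.3% of nuclei with the highest score (pericentral) were set against the 33.3% with the lowest (periportal), with the library as a block. Of 13742 genes tested, 21.9% passed the threshold of an adjusted p under 0.05 (edgeR quasi-likelihood test, Benjamini-Hochberg), 11% higher and 10.9% lower in pericentral nuclei. Of the members, 8 were tested and 4 passed, 3 higher and 1 lower. CPM are counts per 1000000 after TMM scaling unless called unscaled.

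Among the perilipins, Plin4, a coat protein best known from fat cells and muscle, had 11.96 and 59.1 CPM in pericentral nuclei of the aged libraries, against 3.53 and 5.36 CPM in their periportal nuclei. In the young libraries it had 5.53 and 68.3 CPM in pericentral nuclei, against 9.06 and 19.0 CPM in periportal nuclei. Thus 3 of 4 libraries were higher in pericentral nuclei and young replicate 1, with 12 and 16 UMIs in the zones, was not. The log2 difference was 2.32 (SE 0.37, edgeR adjusted p = 0.00129), 2.57 without young replicate 1 and 1.52 without aged replicate 2, both still past the threshold. Plin2, the coat protein of most liver droplets, had 112 and 80.0 CPM in pericentral and 132 and 74.0 CPM in periportal nuclei of the aged libraries. It had 43.8 and 78.6 CPM in pericentral and 57.7 and 68.0 CPM in periportal nuclei of the young libraries. The zones thus differed in either direction within both age groups (log2 difference -0.05, SE 0.10, edgeR adjusted p = 0.826). Plin5, which links droplets to mitochondria, was as mixed, at 9.01 and 14.6 CPM pericentral against 11.3 and 13.4 CPM periportal in aged, and 13.8 and 43.0 CPM pericentral against 17.5 and 38.0 CPM periportal in young libraries (edgeR adjusted p = 0.996).

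The CIDE genes showed no zone difference past the threshold. Cidec had 172 and 125 CPM in pericentral and 164 and 103 CPM in periportal nuclei of the aged libraries, and 20.3 and 70.2 CPM against 20.9 and 65.5 CPM in the young ones (log2 difference 0.13, SE 0.08, edgeR adjusted p = 0.291). Cideb, which takes part in lipidation of very low density lipoprotein, had 35.9 and 28.1 CPM in pericentral and 38.2 and 32.5 CPM in periportal nuclei of the aged libraries. In the young libraries it had 35.5 and 47.7 CPM in pericentral and 30.6 and 40.7 CPM in periportal nuclei. Both aged libraries were thus lower, and both young libraries higher, in pericentral nuclei, a pattern that was not counted over all genes. The log2 difference over all 4 libraries was -0.01 (SE 0.10, edgeR adjusted p = 0.981). Cidea, known mainly from brown fat, was not tested. It had 4 and 46 UMIs in pericentral and 2 and 7 UMIs in periportal nuclei of the aged libraries, and 0 and 7 UMIs against 1 and 4 UMIs in the young ones.

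G0s2, the lipase inhibitor, had 50.1 and 28.0 CPM in pericentral and 25.3 and 16.6 CPM in periportal nuclei of the aged libraries. In the young libraries it had 13.4 and 134 CPM in pericentral and 20.9 and 73.7 CPM in periportal nuclei. Again young replicate 1 went the other way from the other 3 libraries. The log2 difference was 0.74 (SE 0.16, edgeR adjusted p = 0.0070) and 0.88 without young replicate 1, and without young replicate 2 it was 0.65 and no longer passed (edgeR adjusted p = 0.0657).

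Cd36, the fatty acid receptor, had the largest estimate of a pericentral excess among the tested members. It had 207 and 60.8 CPM in pericentral nuclei of the aged libraries, against 28.4 and 5.10 CPM in their periportal nuclei. In the young libraries it had 21.2 and 56.7 CPM in pericentral nuclei, against 27.2 and 13.2 CPM in periportal nuclei. The pericentral level was 7.27 and 11.9 times the periportal level in the aged libraries, and 0.781 and 4.29 times in the young libraries, so young replicate 1 was the exception once more. The log2 difference was 2.49 (SE 0.39, edgeR adjusted p = 0.00105), and 2.92 without young replicate 1 (edgeR adjusted p = 0.000116).

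Hsd17b13 was the member with the steepest gradient and the one that ran the same way in 4 of 4 libraries; of all genes tested, 19.4% were lower and 17.9% higher in pericentral nuclei in 4 of 4. It had 60.1 and 50.6 CPM in pericentral and 437 and 470 CPM in periportal nuclei of the aged libraries. In the young libraries it had 19.4 and 62.8 CPM in pericentral and 197 and 248 CPM in periportal nuclei. Every periportal value was above every pericentral value. The log2 difference was -2.81 (SE 0.18, edgeR adjusted p = 3.47e-06). Mogat1 had too few molecules for the test, at 7 and 10 UMIs in pericentral and 4 and 5 UMIs in periportal nuclei of the aged libraries, and 0 and 2 UMIs against 2 and 1 UMI in the young ones. Cd36, Plin4 and Hsd17b13 passed the threshold in all 8 alternatives run on the zone comparison.

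**Figure D1:**
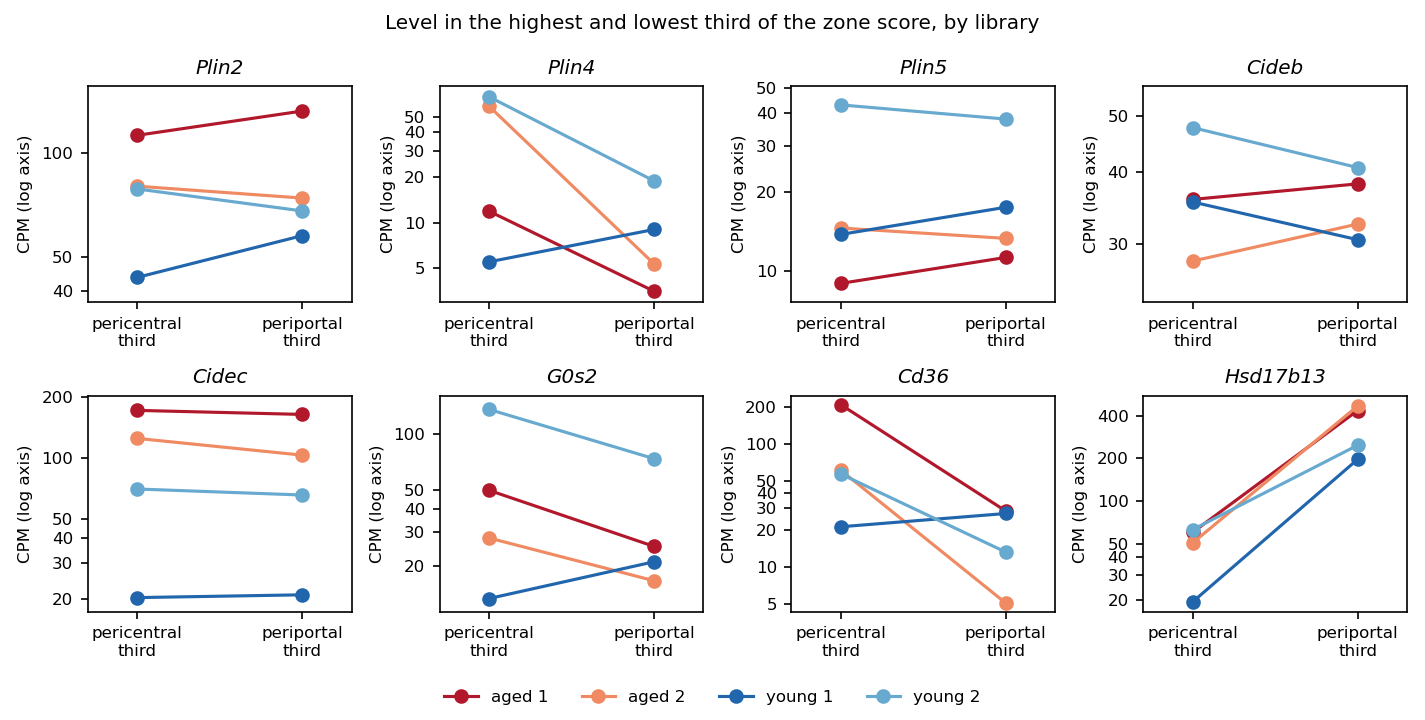
Each panel plots a tested member's level (CPM after TMM scaling, log axis) in the pericentral and the periportal nuclei of the hepatocyte-like class, with 1 line per library. Hsd17b13 falls toward the pericentral side in 4 of 4 libraries, Cd36, Plin4 and G0s2 are higher there in 3 of 4, with young replicate 1 against them, and the Cideb lines of the aged and young libraries slope in opposite directions.

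In 5 equal bins of the score the shapes differed between members. Bin levels are CPM after TMM scaling over the bins, in order from periportal to pericentral. Hsd17b13 had 466, 359, 209, 105 and 39.1 in aged replicate 1 and 485, 444, 347, 107 and 30.2 in aged replicate 2. It had 214, 139, 83.9, 30.9 and 9.93 in young replicate 1 and 255, 212, 172, 100.3 and 41.3 in young replicate 2, falling at every step in each library. Cd36 climbed at every step in aged replicate 1 (21.9, 42.9, 88.6, 129 and 247 CPM) and in young replicate 2 (9.30, 14.8, 23.2, 40.0 and 63.5 CPM). In aged replicate 2 it was level over the first 3 bins (5.67, 5.25 and 5.14 CPM) and then 19.9 and 85.7 CPM. Plin4 in aged replicate 2 had the same late shape, at 5.38, 5.91, 5.68, 16.0 and 85.2 CPM. Cidea in that library had 5.27 CPM in the most pericentral bin and 0.164 to 1.35 CPM in the other bins. In young replicate 1, where Hsd17b13 fell at every step, Cd36 stayed between 16.1 and 27.1 CPM in all 5 bins.

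**Figure D2:**
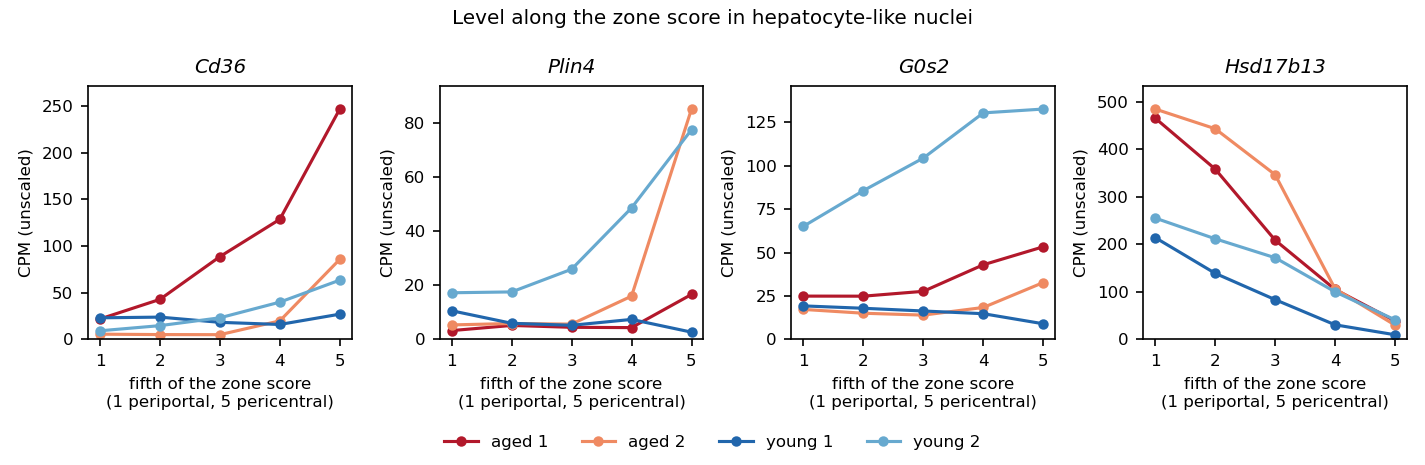
Levels of the 4 members that passed the zone test, in 5 equal bins of the zone score within each library, with 1 line per library. Bins run from 1 (most periportal) to 5 (most pericentral). The values are CPM after TMM scaling, although the axis labels read unscaled. Hsd17b13 falls at every step in each of the 4 libraries, Cd36 and Plin4 in aged replicate 2 are low until the last 2 bins, and in young replicate 1 the most pericentral bin is the lowest of the 5 for Plin4 and G0s2 and the highest for Cd36, which stays between 16.1 and 27.1 CPM.

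Between ages, no member passed the threshold in hepatocyte-like nuclei as a whole. Cidec and Hsd17b13 were higher in both aged libraries than in both young libraries, Plin5 was lower in both, and the remaining tested members overlapped between the groups. Of 15393 genes tested, 6 passed (0.039%; 5 higher and 1 lower in aged libraries), and 0 of the 9 tested members did (edgeR quasi-likelihood test, Benjamini-Hochberg). At an unadjusted p under 0.05, 3 of the 9 members and 18.5% of all genes passed. DESeq2 called 816 genes and no member. Over all genes tested 25.8% had both aged libraries above both young ones and 25.7% had them below, and the members' share, 2 and 1 of 9, is no larger.

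Cidec had 160 and 107 CPM in the aged libraries, against 21.6 and 67.5 CPM in the young libraries (134 ± 37.3 and 44.6 ± 32.5, SD, n = 2 each). The groups did not overlap, and the log2 fold change was 1.58 (SE 0.53, edgeR unadjusted p = 0.0199, adjusted p = 0.212). It was 2.66 without young replicate 2 and 1.88 without aged replicate 2. Over 13 alternatives it ran from 0.999 to 2.66, and 10 of them did not pass the threshold, like the main fit. In each age fit that leaves out 1 library, here and below, the remaining library of that group is assumed to vary like the other group, which alone supplies the spread. Over all alternatives the adjusted p ran from 0.00404 to 0.323. Hsd17b13 had 231 and 271 CPM in the aged libraries, against 91.9 and 155 CPM in the young libraries (251 ± 28.4 and 123 ± 44.7, SD, n = 2 each). Its groups did not overlap either, with a log2 fold change of 1.02 (SE 0.37, edgeR adjusted p = 0.226). Plin5 had 9.94 and 13.8 CPM in the aged libraries, against 14.2 and 38.6 CPM in the young libraries, where aged replicate 2 and young replicate 1 lay close together (log2 fold change -1.16, SE 0.50, edgeR adjusted p = 0.270).

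Cd36 was high in 1 library. It had 107 and 25.7 CPM in the aged libraries, against 21.8 and 30.8 CPM in the young libraries, so aged replicate 1 stood apart and the other 3 lay together. The log2 fold change of 1.33 (SE 0.62, edgeR adjusted p = 0.302) was -0.02 without aged replicate 1 (edgeR adjusted p = 0.997) and 2.05 without aged replicate 2 (edgeR adjusted p = 0.0019). G0s2 was likewise set by 1 library, with 34.7 and 19.6 CPM in the aged libraries, against 16.0 and 104 CPM in the young libraries. Young replicate 2 was the high one, and the log2 fold change of -1.16 (SE 0.75, edgeR adjusted p = 0.450) was 0.79 without it. Plin4 had 6.91 and 24.9 CPM in the aged libraries, against 6.56 and 38.2 CPM in the young libraries, with replicate 2 of both groups above replicate 1 of both (log2 fold change -0.50, edgeR adjusted p = 0.785).

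Plin2 had 116 and 71.4 CPM in the aged libraries, against 50.6 and 72.2 CPM in the young libraries, with aged replicate 2 and young replicate 2 alike (log2 fold change 0.61, SE 0.36, edgeR adjusted p = 0.412). Cideb had 36.7 and 29.8 CPM in the aged libraries, against 34.1 and 45.5 CPM in the young libraries, and the groups overlapped (log2 fold change -0.26, SE 0.32, edgeR adjusted p = 0.702). Cidea had 8 and 55 UMIs in the aged libraries, against 2 and 15 UMIs in the young libraries (log2 fold change 0.31, edgeR adjusted p = 0.884). Mogat1, with 14 and 16 UMIs in the aged and 2 and 4 UMIs in the young libraries, did not pass the filter on low counts and was not tested.

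**Figure D3:**
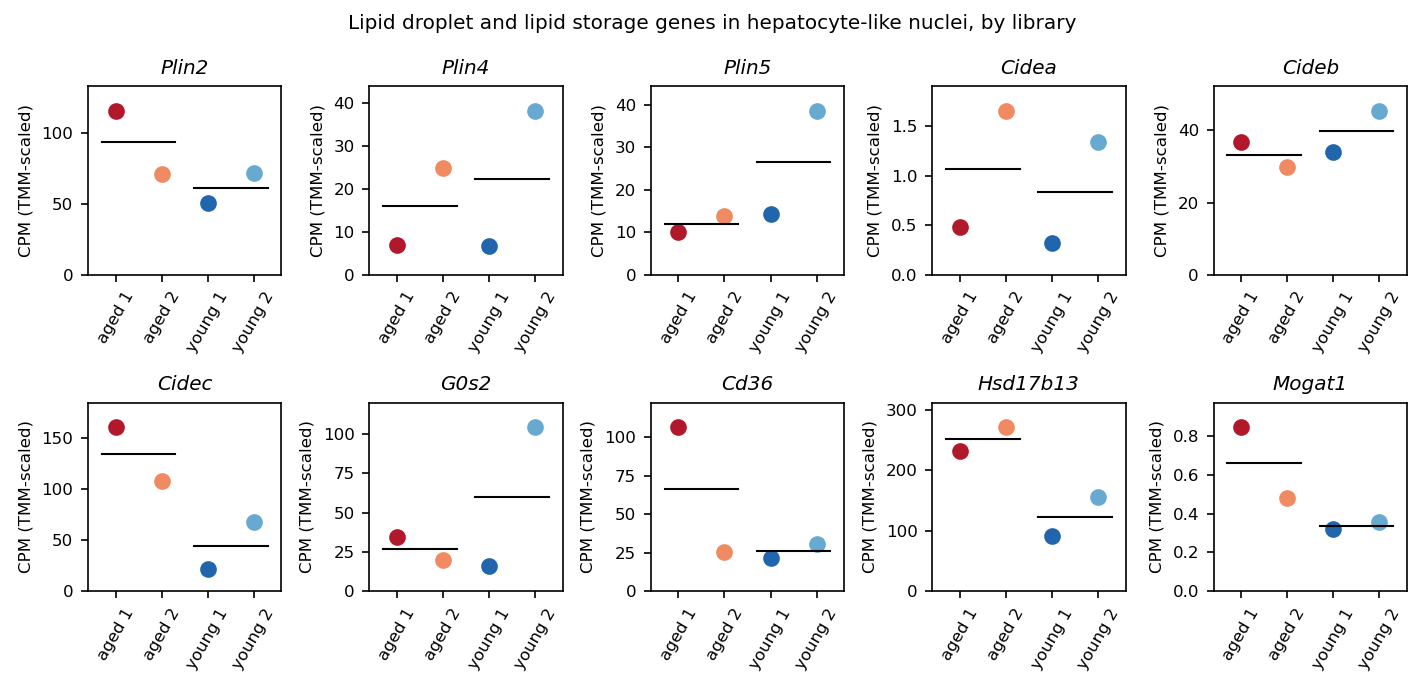
Level of each member (CPM after TMM scaling, y axes from 0) in hepatocyte-like nuclei of the 2 aged and the 2 young libraries, 1 point per library, with a line at each group's mean. Cidec and Hsd17b13 are higher in both aged libraries than in both young ones, Cd36 is set by aged replicate 1 and G0s2 by young replicate 2.

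As shares of nuclei, Cidec was detected in 31.8% and 30.0% of aged hepatocyte-like nuclei, against 8.61% and 7.71% of young ones, where the aged and young nuclei had median depths of 2111 and 2988, against 3575 and 927 UMIs. Thinned to 1000 UMIs per nucleus, which leaves out shallower nuclei (3970 and 7184 aged and 1303 and 3895 young nuclei remained), the shares were 14.9% (95% exact binomial interval 13.8 to 16.0%) and 10.3% (9.62 to 11.04%) in aged, against 2.00% (1.31 to 2.91%) and 7.27% (6.47 to 8.13%) in young libraries. T/NK-like nuclei, which should lack Cidec, had thinned shares of 7.14% (1.498 to 19.5%) and 7.01% (3.55 to 12.2%) in the aged libraries and 8.62% (2.86 to 19.0%) in young replicate 2. These shares came from 42, 157 and 58 nuclei of at least 1000 UMIs. Before thinning, all T/NK-like nuclei of these libraries, shallower ones included, had a median depth of 974, 1076.5 and 1064.5 UMIs. The hepatocyte-like shares of the aged libraries and of young replicate 2 all lay inside the intervals of this background, so at this number of T/NK-like nuclei they could not be told from it. Hsd17b13 was found in 20.9% and 25.3% of thinned aged hepatocyte-like nuclei, against 9.36% and 13.4% of young ones, and in 21.4% (10.3 to 36.8%) and 14.0% (8.99 to 20.4%) of aged and 15.5% (7.35 to 27.4%) of young replicate 2 T/NK-like nuclei. For Hsd17b13, among the 3 libraries with that comparison, only the hepatocyte-like share of aged replicate 2 lay above the interval of the T/NK-like share of its library. These intervals cover counting error only.

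The zone difference was also compared between ages, since an age difference could lie in 1 zone alone. No member passed this test: 14 of 13742 genes did (0.102%; 9 with a larger and 5 with a smaller pericentral excess in aged libraries), and 0 of the 8 tested members (edgeR quasi-likelihood test). At an unadjusted p under 0.05, 2 of the 8 members and 5.81% of all genes passed. For Cd36 the pericentral nuclei had 207 and 60.8 CPM in the aged and 21.2 and 56.7 CPM in the young libraries. Aged replicate 2 and young replicate 2 lay close together there. The periportal levels of Cd36 overlapped between the groups (28.4 and 5.10 CPM aged, 27.2 and 13.2 CPM young). Its interaction was 1.97 (log2, SE 0.55, edgeR unadjusted p = 0.00538, adjusted p = 0.519) and 1.02 without young replicate 1 (edgeR adjusted p = 0.989). Plin4 had an interaction of 1.60 (SE 0.60, edgeR adjusted p = 0.794), which was 0.26 without aged replicate 2. The interaction of Hsd17b13 was -0.58 (SE 0.32, edgeR adjusted p = 0.881), and its periportal nuclei had 437 and 470 CPM in aged against 197 and 248 CPM in young libraries.

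Outside hepatocytes, barcodes of the other classes carried much hepatocyte RNA, so levels there were read against 12 hepatocyte transcripts such as Alb and Apoa1. At least 50% of the hepatocyte level of these transcripts was reached by 45.6% and 85.5% of aged and 67.5% and 92.6% of young endothelial-like nuclei. The same was true of 37.8% and 78.4% of aged and 77.4% and 93.5% of young macrophage-like nuclei, and of 17.9% and 42.2% of aged and 54.1% and 84.5% of young stellate/fibroblast-like nuclei. Cd36, which capillary endothelium and macrophages are known to express, was above the highest of these transcripts in endothelial- and macrophage-like nuclei of 4 of 4 libraries. In unscaled CPM, endothelial-like nuclei had 247% and 273% of the hepatocyte-like Cd36 level of their own library in aged, and 202% and 211% in young libraries. The 12 transcripts reached at most 92.4% and 90.6% in aged and 129% and 98.6% in young endothelial-like nuclei. The lower 95% Poisson bound for Cd36 lay above all 12 in both aged libraries and in young replicate 2, and in young replicate 1, with 8 UMIs, it did not.

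Macrophage-like nuclei had 143% and 199% of the hepatocyte-like Cd36 level in aged, and 373% and 130% in young libraries. The lower bound was above all 12 transcripts in both aged libraries and in young replicate 1, while in young replicate 2, with 20 UMIs, it was 79.2%, below the highest transcript at 96.1%. In endothelial-like nuclei under 50% hepatocyte RNA, Cd36 reached 261% and 600% of the hepatocyte-like level in aged libraries (52 and 41 UMIs), and 404% and 440% in young libraries (2 and 11 UMIs). The 12 transcripts reached at most 71.9% and 84.0% there in aged and 164% and 70.4% in young libraries. These nuclei were picked by a low summed share of the same 12 transcripts. The choice itself thus lowered the range that Cd36 is set against, and its gap to them there is partly built in. Members above the highest transcript, Cd36 included, numbered 2 and 5 in aged and 1 and 8 in young libraries. A place above the 12 was thus not particular to Cd36 in these nuclei, and the share of all genes above them was not counted. Plin2 was above all 12 transcripts, with its lower bound too, in macrophage-like nuclei of aged replicate 1, at 141% of the hepatocyte-like level (lower bound 114%, against 79.4% for the highest transcript). In the other macrophage-like sums Plin2 had 103% in aged replicate 2, against 64.2% and 96.8% in young libraries, with lower bounds inside or below the range of the 12. Hsd17b13, a hepatocyte gene, reached 101% in stellate/fibroblast-like nuclei of young replicate 1, with a lower bound inside the range of the 12. Stellate/fibroblast-like nuclei had 24.3% and 52.1% of the hepatocyte-like Cd36 level in aged, and 153% and 90.5% in young libraries. In young replicate 1 the lower bound of Cd36 there (119%) was above the highest transcript (93.0%), as was that of Plin2 (120%, lower bound 100.02%). Lower bounds above all 12 were also found for Cd36 in B-like nuclei of aged replicate 2 and young replicate 2 and in cholangiocyte-like nuclei of aged replicate 1, and for Cidea from 2 UMIs in stellate/fibroblast-like nuclei of aged replicate 1 and 5 UMIs in macrophage-like nuclei of aged replicate 2. How many of all genes lay above the 12 transcripts, or had such a lower bound, was not counted in any class. The part of hepatocyte RNA in these levels was not tested beyond these ratios.

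**Figure D4:**
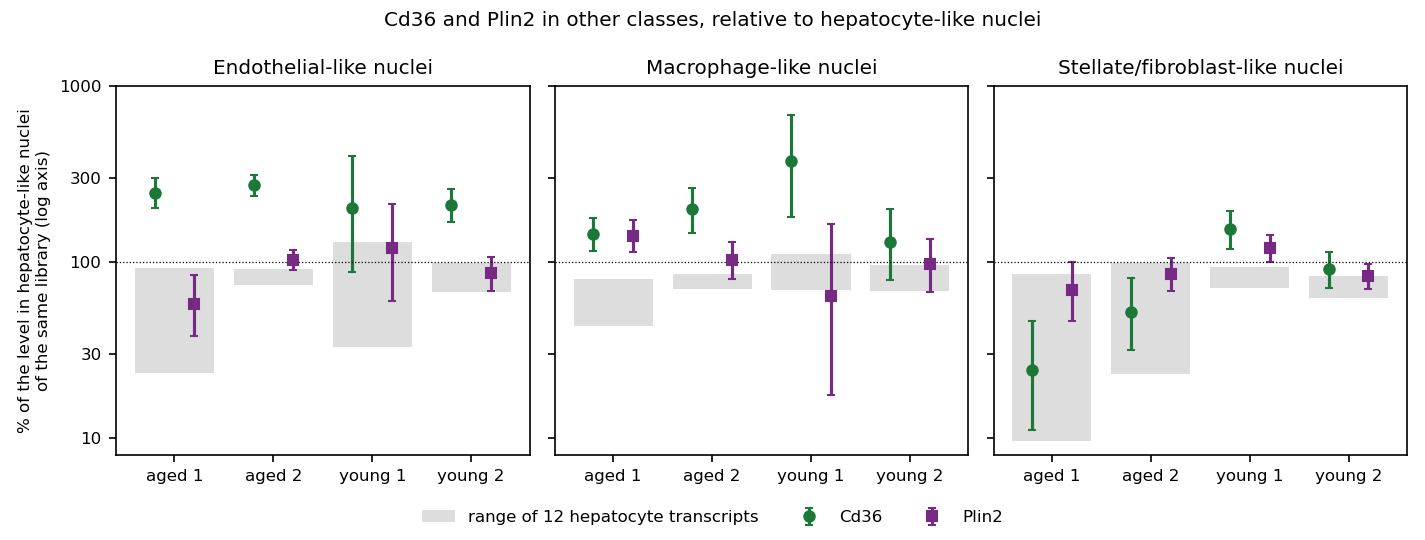
Cd36 and Plin2 in endothelial-, macrophage- and stellate/fibroblast-like nuclei as a percent of the level in hepatocyte-like nuclei of the same library (log axis), with 95% Poisson intervals of the class counts. The grey blocks span 12 hepatocyte transcripts in the same nuclei. Cd36 lies above the block in 4 of 4 libraries in endothelial- and macrophage-like nuclei, though its interval reaches into the block in endothelial-like nuclei of young replicate 1 and macrophage-like nuclei of young replicate 2. Plin2 is clear of it in macrophage-like nuclei of aged replicate 1 and in stellate/fibroblast-like nuclei of young replicate 1.

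With age, no member passed in these classes. In endothelial-like nuclei 0 of 9481 genes passed (0%; 498, or 5.25%, had an unadjusted p under 0.05, edgeR, none of the 8 tested members among them), and Cd36 had 266 and 75.0 CPM in the aged libraries, against 41.9 and 71.4 CPM in the young libraries. Aged replicate 1 was again the high library, as among hepatocyte-like nuclei, and the log2 fold change was 1.48 (SE 0.66, edgeR adjusted p = 0.838), or 2.10 without aged replicate 2 (edgeR adjusted p = 0.0336). In macrophage-like nuclei 7 of 7970 genes passed (0.0878%; 12.9% at an unadjusted p under 0.05) and none of the 5 tested members did (edgeR; none of them at an unadjusted p under 0.05 either). Plin2 had 168 and 77.6 CPM there in the aged libraries, against 32.5 and 79.5 CPM in the young libraries (log2 fold change 0.96, SE 0.53, edgeR adjusted p = 0.479), and Cd36 had 157 and 54.0 CPM, against 81.2 and 45.5 CPM (0.83, SE 0.59, edgeR adjusted p = 0.596).

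The stellate/fibroblast-like class lay in different clusters in the age groups. Cluster 3 held 314 and 1154 of the 319 and 1231 aged nuclei, against 101 and 103 of the 379 and 1514 young ones, and cluster 2 held 5 and 77 aged, against 278 and 1411 young nuclei, so age and cluster cannot be told apart here. In this class 1964 of 12225 genes passed (16.1%) and none of the 8 tested members did (edgeR), while 32.9% of genes and 2 members, Plin5 and Cideb, had an unadjusted p under 0.05. Plin5 came closest, with 0 and 3 UMIs in the aged libraries, against 16 and 63 UMIs in the young libraries, at total depths of 358975 and 1416838, against 2242877 and 2279863 UMIs. Over the summed UMIs of the groups the aged level was 0.0967 times the young level (95% exact interval 0.0195 to 0.293, counting error only). The fitted log2 fold change was -3.24 (SE 0.96, edgeR adjusted p = 0.0513), and -2.12 without young replicate 2 (edgeR adjusted p = 0.219). It passed in 5 of 7 alternatives, of which 3 left out 1 library, and without aged replicate 2 the aged side was a library with 0 UMIs, so that fit gives no fold. In nuclei under 50% hepatocyte RNA, Plin5 had 0 and 2 UMIs in aged, against 0 and 4 UMIs in young libraries, too few for a test. All 8 tested members except Plin2 had negative fold changes in this class. The median log2 fold change over all 12225 genes was -0.04, and the share of negative ones was not counted. Hepatocyte RNA was higher in the young nuclei of the class than in the aged ones, as given above, and its part in these differences was not tested.

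Other genes of the same pathways were followed in lists by role, with the same fits. With age in hepatocyte-like nuclei none of the 56 tested genes passed, against 0.039% of all genes. The 2 with the smallest p were Agpat1 (log2 fold change -1.47) and Gpat3 (2.11) for triglyceride synthesis, Lipe (0.65) and Pnpla3 (1.77) for lipolysis, and Aup1 (-1.12) and Fitm2 (-0.67) for droplet formation. They were Fabp4 (-2.27) and Slc27a1 (-1.37) for fatty acid uptake, Apob (0.84) and Surf4 (-0.71) for lipoprotein lipidation, and Cebpb (-1.93) and Cebpa (-1.06) for transcription factors. The edgeR adjusted p of these 12 ran from 0.142 to 0.521.

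Between zones several list members moved beside Cd36, Plin4, G0s2 and Hsd17b13. Pparg, the nuclear receptor that in mouse drives many of the genes described here in fat cells, had 176 and 184 CPM in pericentral and 18.02 and 4.13 CPM in periportal nuclei of the aged libraries. In the young libraries it had 103 and 91.2 CPM in pericentral and 5.09 and 12.4 CPM in periportal nuclei, and the zones did not overlap (log2 difference 3.98, SE 0.33, edgeR adjusted p = 1.68e-05). Of 10 transcription factors tested, 5 were higher in pericentral nuclei (Pparg, Ppara, Rxra, Mlxipl and Cebpb) and 2 lower, Ppargc1a (-1.17) and Srebf1 (-0.66), beside 11% higher and 10.9% lower among all genes, with a list median of 0.16 against -0.01 over all genes. Droplet formation had 3 of 9 higher, Fitm1 (2.39), Fitm2 (0.56) and Hsd17b11 (0.37), none lower, and a median of 0.01. Fitm1 and Fitm2 are needed for droplets to form at the endoplasmic reticulum.

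Triglyceride synthesis had Lpin2 (0.60) and Dgat2 (0.37) higher and Lpin1 (-0.87) lower in pericentral nuclei, of 11 tested (median -0.06). Lipolysis had Ces1d (0.72) higher and Pnpla3 (-2.77) lower of 8 (median 0.07), where Pnpla3 had 3.47 and 0.510 CPM in pericentral and 33.6 and 1.76 CPM in periportal nuclei of the aged libraries. In young libraries Pnpla3 had 0 and 1.85 CPM in pericentral and 0 and 8.81 CPM in periportal nuclei, so in young replicate 1 it was listed at 0 in both. Fatty acid uptake and activation had Slc27a1 (0.93) higher and Acsl3 (-0.73) and Acsl5 (-0.33) lower of 11 (median -0.20). Lipoprotein lipidation, the export of triglyceride, had Apoc3 (-0.95), Tm6sf2 (-0.90) and Apob (-0.40) lower of 6 and none higher (median -0.36). Beside the 21.9% of all genes called in either direction, the 3 of 11 of triglyceride synthesis, 2 of 8 of lipolysis and 3 of 11 of fatty acid uptake are near the background. These values are log2 differences, and each named gene had an edgeR adjusted p under 0.05.

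For the 6 members with a mean of at least 20 CPM, the 3 genes with the most similar profile over 20 points (5 score bins in 4 libraries, centred in each library) were listed among 6221 genes. Hsd17b13 was followed most closely by the glycine-cleavage enzyme Gldc (r = 0.995), Cryl1 (r = 0.994) and the histidine-catabolic enzyme Uroc1 (r = 0.994). Cd36 was closest to Kpna4 (r = 0.943), the peroxisomal membrane gene Pex11a (r = 0.937) and Vwa8 (r = 0.934). G0s2 was closest to Mgst1 (r = 0.894), Pitpnm2os2 (r = 0.885) and Wwc1 (r = 0.884). Cidec was closest to Mpp1 (r = 0.818), Xylb (r = 0.811) and Kcmf1 (r = 0.787), and Cideb to Bnip1 (r = 0.815), Mettl7a1 (r = 0.788) and Ecsit (r = 0.742). Plin2 was closest to Dbi (r = 0.771), which binds acyl-CoA, Fabp1 (r = 0.769), the fatty acid binding protein of liver, and Hacd2 (r = 0.751), an enzyme of fatty acid elongation. The points share libraries, nuclei and 1 score, so these r values describe likeness along the plate only.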

How the data were processed

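RNA of single nuclei in 2 aged and 2 young liver libraries was counted with the 10x 3′ v2 chemistry. The authors deposited raw UMI counts, 1 matrix per library. Cell Ranger 7.1.0 and the genome build mm10 are named in the submitters' processing notes. For the annotation release, intron handling and strand, settings were not given in the sources used here. No deposited barcode held under 500 UMIs.

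Kept barcodes had 500 or more UMIs, 300 or more genes and no more than 5% mitochondrial UMIs. Scrublet in scanpy 1.11.5 marked no doublet at its automatic threshold, so 0.8% per 1000 barcodes were taken out, those of highest score. Nuclei were clustered (2000 genes, 30 components, 20 neighbours, Leiden at resolution 1, igraph 0.11.9) without integration. Clusters were named "-like" from at least 3 markers, and the score thresholds for names (2.5 and 1) and the rule that left a mixed cluster unnamed (466 and 192 aged, 2 and 10 young nuclei) were set after the data were seen. Class names are thus rebuilt, and differences from the study's names are possible.

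Counts were summed per library and class or zone (R 4.3.3) and tested with edgeR 4.0.16 (TMM, filterByExpr, quasi-likelihood F test, Benjamini-Hochberg over all genes tested, threshold 0.05). SE is the log2 fold change over the root of F. A class was tested with at least 20 nuclei in every library. Shares used exact binomial and ratios exact Poisson 95% intervals. With 2 against 2 libraries an exact permutation test cannot give a p below 0.333, so shares were not tested. Alternatives were DESeq2 1.42.0, other scaling, filters, zones, blocks and leaving out each library. The scripts were tested on simulated data. The labels name no pairing of libraries by replicate number, so the main age fits used none.

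The members, gene lists and tests were chosen with earlier results of these data known. All 10 members are named, and of each list the genes past the threshold, or the 2 with the smallest p. The genes most like a member had the highest Pearson r of log2(CPM + 1) among genes of at least 20 CPM, without landmarks and predicted, mitochondrial or ribosomal protein genes.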

Additional observations from a re-analysis of the deposited data

Results flagged for a closer look

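For Cideb the pericentral minus periportal difference pointed one way in both aged libraries and the other way in both young libraries, at 0.940 and 0.863 times the periportal level in aged against 1.16 and 1.17 times in young pericentral nuclei. The interaction was -0.3808 on the log2 scale (SE 0.18, edgeR unadjusted p = 0.0572, adjusted p = 0.862), so the difference did not pass its test. How many of all genes tested had the same pattern of signs was not counted.

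For Hsd17b13 the age difference in stellate/fibroblast-like nuclei was -0.6694 on the log2 scale (SE 0.42, edgeR adjusted p = 0.313), against 1.02 in hepatocyte-like nuclei. In stellate/fibroblast-like nuclei it had 38.8 and 91.3 CPM in the aged libraries, against 94.5 and 124 CPM in the young libraries. Both aged libraries were below both young ones, but aged replicate 2 and young replicate 1 lay close together. The level of aged replicate 1 came from 14 UMIs. In hepatocyte-like nuclei both aged libraries were above both young ones. The difference between the classes was not tested, and hepatocyte RNA in the stellate/fibroblast-like nuclei was higher in young libraries and the age groups lay mostly in different clusters of that class, as reported above. The share of all genes with both aged libraries below both young ones was not counted in that class.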

How the results depend on the processing

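Of 392 values of members under other settings, 339 kept direction and side of the threshold, 1 lost its call (G0s2 between zones), 16 gained one and 36 changed sign. The causes were not tested. Counts of genes called moved more. With age in hepatocyte-like nuclei 6 genes became 1461 without the filter on low counts (2 members, Cidec and Cd36), 816 with DESeq2, 11 with a replicate block and 12 with the numbers crossed, 2 with at least 1000 UMIs, 2 with at most 1% mitochondrial UMIs, 3 with equal numbers of nuclei, and 159 to 989 (0 to 2 members) leaving out 1 library. In stellate/fibroblast-like nuclei 1964 genes became 3128 without the filter (2 members), 1219 with the replicate block (1 member), 1216 to 2211 (0 to 3 members) leaving out 1 library, and 0 in nuclei under 50% hepatocyte RNA, where 5682 genes were tested and 836 had an unadjusted p under 0.05. In endothelial-like nuclei 0 became 97 without the filter and 0 to 293 (0 to 1 member) leaving out 1 library. In macrophage-like nuclei 7 became 261 without the filter, 3 with the block and 0 to 562. For the interaction 14 became 9 with RLE size factors, 113 without the filter (1 member, Cd36), 1 with at least 1000 UMIs and 0 to 123.

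Sign changes came mostly from leaving out 1 library. The ranges of log2 fold change were then, for age in hepatocyte-like nuclei, -0.0186 to 2.05 (Cd36), -0.80 to 1.80 (Cidea), -1.67 to 1.32 (Plin4) and -1.93 to 0.79 (G0s2). They were -1.66 to 0.97 for G0s2 in stellate/fibroblast-like, -0.21 to 3.70 (Cidec), -0.88 to 0.82 (Hsd17b13) and -1.93 to 0.10 (Plin4) in endothelial-like, and -0.16 to 1.52 (Cideb) and -0.071 to 1.44 (Cd36) in macrophage-like nuclei. Between zones they were -0.10 to 0.10 (Plin5), -0.0866 to 0.10 (Cideb) and -0.13 to 0.0547 (Plin2). For the interaction they were -0.031 to 1.502 (G0s2), -0.29 to 0.33 (Plin2), -0.40 to 0.29 (Plin5), -1.09 to 0.29 (Hsd17b13) and -0.0216 to 0.21 (Cidec). In nuclei under 50% hepatocyte RNA, Plin2 was -0.17 in stellate/fibroblast-like and Hsd17b13 -0.53 in endothelial-like nuclei. Zone values near 0 turned positive with RLE size factors (Plin5 0.0064, Cideb 7e-04), without the filter (0.0213 and 0.0138) and with zones of 50% (0.0119 and 0.0047), as did Plin2 in the interaction with at least 1000 UMIs (0.0081).

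The correlation of replicate differences between the age groups was -0.21 over 15393 genes. It rests on differences of single libraries and cannot decide whether the numbers pair them. The labels name no pairing, and the replicate block values are given for completeness. A fit of macrophage-like nuclei under 50% hepatocyte RNA was not run, since young replicate 1 kept 7 such nuclei. Depth limited Cidea and Mogat1 most.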
